A study of Mus musculus with 8 samples.

Results

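The genes that move calcium into, out of and within the cell were followed in mouse tendon stem cells (TSCs) cultured in a medium rich in glucose and fatty acid. They were taken by symbol from the expression table: voltage-gated calcium channel subunits (Cacna, Cacnb, Cacng), ryanodine receptors (Ryr), inositol trisphosphate (IP3) receptors (Itpr), calcium pumps (Atp2a, Atp2b, Atp2c), sodium-calcium exchangers (Slc8), the STIM and ORAI proteins of store-operated entry, TRPC, TRPM and TRPV channels, the mitochondrial uniporter (Mcu, Micu) and the CaMKII kinases. The choice used symbols and no measured value, and it took 80 of the 19301 genes in the table. Among them, Trpc4ap (a TRPC4-associated protein, not a channel) and Trpc5os (a transcript on the strand opposite to Trpc5) were taken by their names alone.

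TSCs were primary cells released by collagenase from the patellar tendon of C57BL/6J mice, whose age at isolation is not given in the sources used here, and grown in low glucose medium with 10% fetal bovine serum. No step of cloning or sorting is described for them. The LG group received 5.5 mM glucose and DMSO, and the HFHG group received high glucose together with palmitic acid (a saturated fatty acid) at 300 µM, both for 4 days. Glucose and palmitic acid differed together between the groups, so their separate parts cannot be told apart. Each group had 4 libraries, which the study calls biological replicates, and the comparison asks how HFHG medium altered the transcripts of these genes.

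Calcium is kept low in the cytosol by pumps in the endoplasmic reticulum (SERCA), the plasma membrane (PMCA) and the Golgi (SPCA), and by exchangers that trade calcium for sodium. It enters through voltage-gated, store-operated and TRP channels and leaves the endoplasmic reticulum through IP3 and ryanodine receptors, after which STIM proteins sense the emptied store and open ORAI channels. Mitochondria take up part of each signal through the uniporter, and calmodulin, CaMKII and calcineurin pass it on. In tendon cells, calcium signals are known to follow mechanical load.

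Expression was deposited as FPKM, the fragments of a gene divided by its length and by that library's total of fragments. Levels of different genes can thus be set side by side. Library totals recovered from these values were 34308108 to 37362725 reads, 99.8% of them on the listed genes. In a principal component analysis, 81.0% of the variance lay along a component that separated HFHG from LG, and LG replicate 4 stood apart on the next one (4.18%). Genes with at least 0.5 FPKM in at least 4 of the 8 libraries were compared by limma on log2(FPKM + 0.1), and a gene was called when its Benjamini-Hochberg adjusted p was below 0.05. Fold changes are on that scale, which understates the changes of low genes. All tendon fibroblast markers listed for the check were measured above the minimum (13 of 13), of which 10 were higher and 2 lower in HFHG, and Scx, a transcription factor of tendon cells, stood at 2.27 FPKM in HFHG and 1.45 FPKM in LG on average. Tnmd was also called higher (0.86 on the log2 scale), and Mkx lower (-0.35). Tnmd was low, at 1.01 to 1.19 FPKM in HFHG and 0.22 to 0.92 FPKM in LG. By qPCR, at a culture time it does not state, the study reported lower Scx and Tnmd and no significant change of Mkx in HFHG. It also reported the change in protein, by blots that included TNMD, and lower TNMD protein in tendon and TSCs of diabetic mice.

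Of the 80 calcium genes, 36 passed the minimum and 44 did not. Among the 36, 16 were higher in HFHG (44.4%, where 34% of all 11710 genes tested were), 7 were lower (19.4%, against 30.8% of all genes tested), and 13 were not called. A change of more than 2-fold was found for 4 genes, all higher (11.1% of the 36, against 3.68% of all genes tested), while no member fell by more than 2-fold, as 1.63% of all genes tested did. The median log2 fold change was 0.11 over the 36 genes and 0.02 over all genes tested. The split over all genes, 3983 higher and 3609 lower, depended on the scaling. Rescaling every library to the same FPKM sum turned it into 4682 and 3002, and gave 20 higher and 7 lower members. Median-ratio scaling moved it the other way, to 3548 higher and 4053 lower, with 14 higher and 7 lower members. Quantile normalization gave 3613 and 4012, with 15 higher and 9 lower members. The median over the 36 genes was 0.169, 0.076 and 0.059 under these scalings. The minimum was met in all 8 libraries by 34 of the 36 genes, Cacna1c met it in 4 HFHG and 2 LG libraries, and Atp2a3 in 2 HFHG and 4 LG libraries. Since these are bulk samples, fewer cells of a type and less RNA per cell cannot be told apart.

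**Figure D1:**
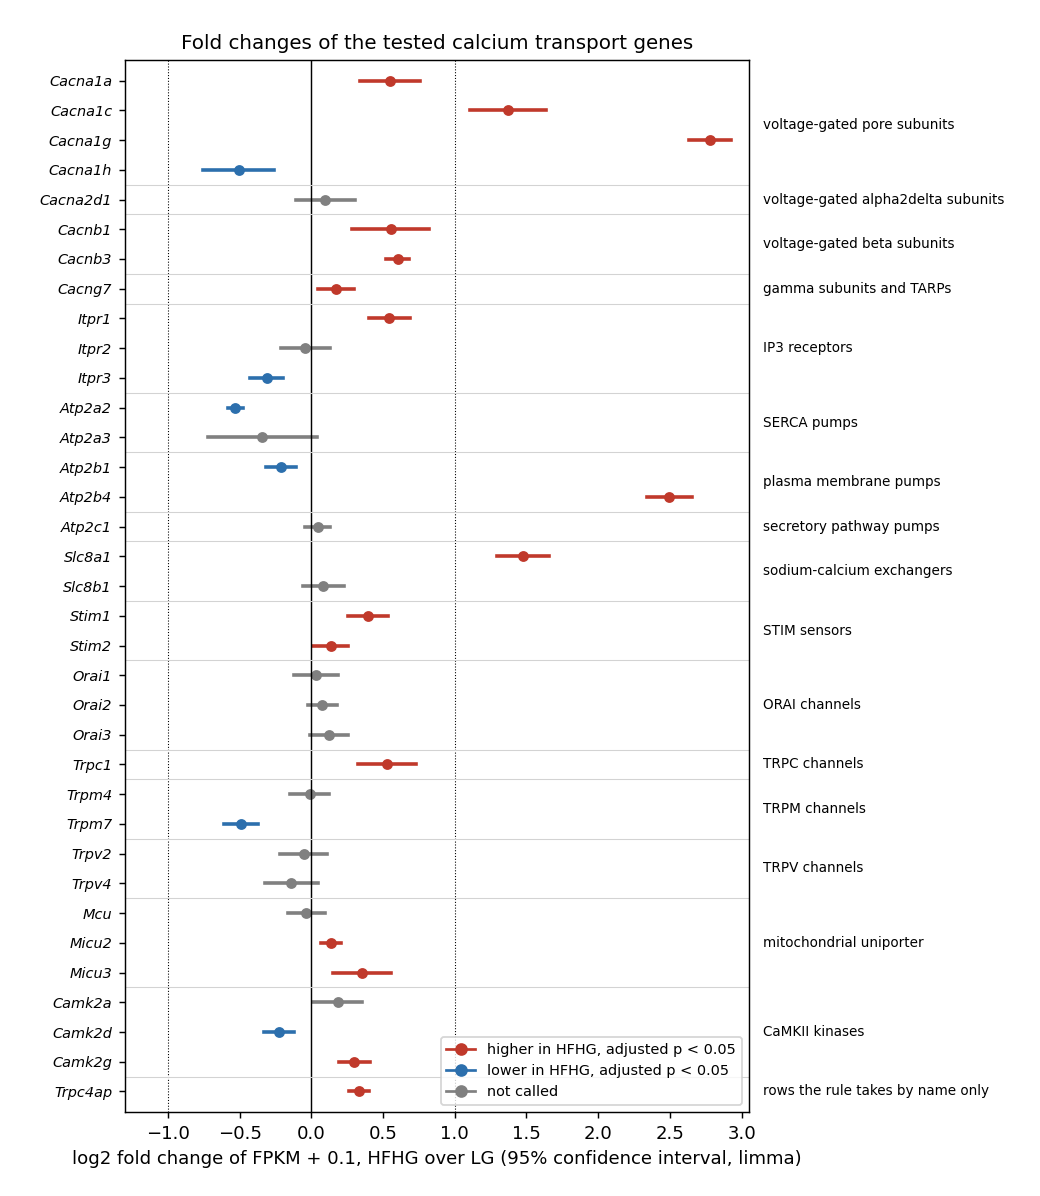
Log2 fold change of FPKM + 0.1 (HFHG over LG, horizontal axis) with its 95% confidence interval for the tested genes, with 1 of the 36 left out, grouped by role, in red where called higher, blue where called lower and grey where not called. Cacna1g (2.78) and Atp2b4 (2.50) lie farthest to the right, followed by Slc8a1 (1.48) and Cacna1c (1.37), and no gene lies beyond the dotted line at -1.

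The 4 genes with more than a 2-fold rise were Cacna1g, the pore of a T-type channel that opens at small depolarizations, Cacna1c, the pore of an L-type channel, Atp2b4, a plasma membrane calcium pump, and Slc8a1, the plasma membrane sodium-calcium exchanger. They lie on 4 chromosomes of GRCm38 (the assembly also named mm10): Cacna1g at chr11:94408391-94474400, Cacna1c at chr6:118587240-119197384, Atp2b4 at chr1:133702674-133801059 and Slc8a1 at chr17:81373105-81738387. The 250 bases before a start site listed by RefSeq (GRCm38.p6) are shown for 3 of them, on the strand of the gene, because these genes were among the 4 that rose most. For Cacna1g no start window was listed. Capitals mark the GC box, GGGCGG on either strand, where copies may overlap. The Atp2b4 window is at chr1:133753748-133753997, the Slc8a1 window at chr17:81738388-81738637, and the Cacna1c window, at the second of 3 listed starts, at chr6:119108496-119108745, all on the minus strand. The Atp2b4 and Cacna1c windows lie inside their genes.
Atp2b4: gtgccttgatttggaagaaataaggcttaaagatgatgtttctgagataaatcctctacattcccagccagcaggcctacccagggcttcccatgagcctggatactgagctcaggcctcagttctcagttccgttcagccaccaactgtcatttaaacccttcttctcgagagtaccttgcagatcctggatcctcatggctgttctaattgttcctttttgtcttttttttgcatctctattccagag
Slc8a1: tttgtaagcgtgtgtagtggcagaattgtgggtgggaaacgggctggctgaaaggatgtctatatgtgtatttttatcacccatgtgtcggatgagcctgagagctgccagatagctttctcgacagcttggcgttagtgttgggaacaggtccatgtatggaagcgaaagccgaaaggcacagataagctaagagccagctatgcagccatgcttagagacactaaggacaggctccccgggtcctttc
Cacna1c: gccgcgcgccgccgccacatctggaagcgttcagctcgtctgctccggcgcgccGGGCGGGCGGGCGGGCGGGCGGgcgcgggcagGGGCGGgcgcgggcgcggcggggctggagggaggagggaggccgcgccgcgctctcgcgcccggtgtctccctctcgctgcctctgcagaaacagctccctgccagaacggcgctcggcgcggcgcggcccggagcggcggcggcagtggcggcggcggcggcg

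The Cacna1c window held 6 GC boxes and was 82.8% G and C, whereas the Atp2b4 and Slc8a1 windows, at 45.6% and 50.4% G and C, and the windows at the other Cacna1c starts held none of the motifs searched. The motifs, read on both strands, were the E-box (CACGTG), the cyclic AMP response element (TGACGTCA), the GC box, the TATA box (TATAAA) and the CArG box. Start windows were listed for 62 of the 80 genes, 79 windows in all, of which 36 (45.6%) held a GC box, as did 32.7% of the windows of all genes. The other motifs were found in 5 member windows for the E-box (6.33%, 6.02% of all windows), 5 for the TATA box (6.33%, 12.4% of all), 2 for the CArG box (2.53%, 1.47% of all) and 0 for the cyclic AMP response element (1.55% of all). Which start these cells used is not known from gene-level values.

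Cacna1g was expressed at 7.32, 7.81, 8.01 and 8.17 FPKM in HFHG replicates 1 to 4. In LG it was expressed at 1.03, 1.03, 1.12 and 1.04 FPKM. Every HFHG library was far above every LG library, and the spread within each group was small beside the gap. Its mean was 1.055 ± 0.0449 FPKM in LG and 7.83 ± 0.367 FPKM in HFHG (SD, n = 4 each), and it rose by 2.78 on the log2 scale (SE 0.067, adjusted p = 3.39e-12 by limma).

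Cacna1c stood at 1.37, 1.45, 1.52 and 1.56 FPKM in the HFHG replicates. The LG replicates held 0.490, 0.617, 0.520 and 0.419 FPKM. The groups did not overlap, and the lowest HFHG library was above the highest LG library by more than either group's range. It rose by 1.37 on the log2 scale (SE 0.12, adjusted p = 6.46e-07 by limma).

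The other tested pore subunits moved less. Cacna1a, the pore of P/Q-type channels of nerve terminals, was expressed at 2.29, 2.41, 2.79 and 2.66 FPKM in HFHG against 1.92, 1.76, 1.52 and 1.60 FPKM in LG, and rose by 0.55 on the log2 scale (adjusted p = 0.00025 by limma). Cacna1h, a T-type pore like Cacna1g, went the other way: its HFHG libraries held 0.838, 0.841, 0.714 and 0.890 FPKM and its LG libraries 1.20, 1.37, 1.051 and 1.22 FPKM, without overlap. It fell by 0.51 on the log2 scale (adjusted p = 0.00179 by limma).

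The make-up of the pore family changed accordingly. Cacna1g held 22.03% ± 1.80 (SD, n = 4) of the summed FPKM of the Cacna1 pore genes in LG and 59.9% ± 0.428 in HFHG, whereas Cacna1h went from 25.2% to 6.29% and Cacna1a from 35.4% to 19.4%. The share of Cacna1c was 10.6% in LG and 11.3% in HFHG. The sum itself was 4.80 ± 0.212 FPKM in LG and 13.1 ± 0.670 FPKM in HFHG. Shares of this family and of the exchangers were added after the values had been seen, and all shares are given as descriptions without a test.

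**Figure D2:**
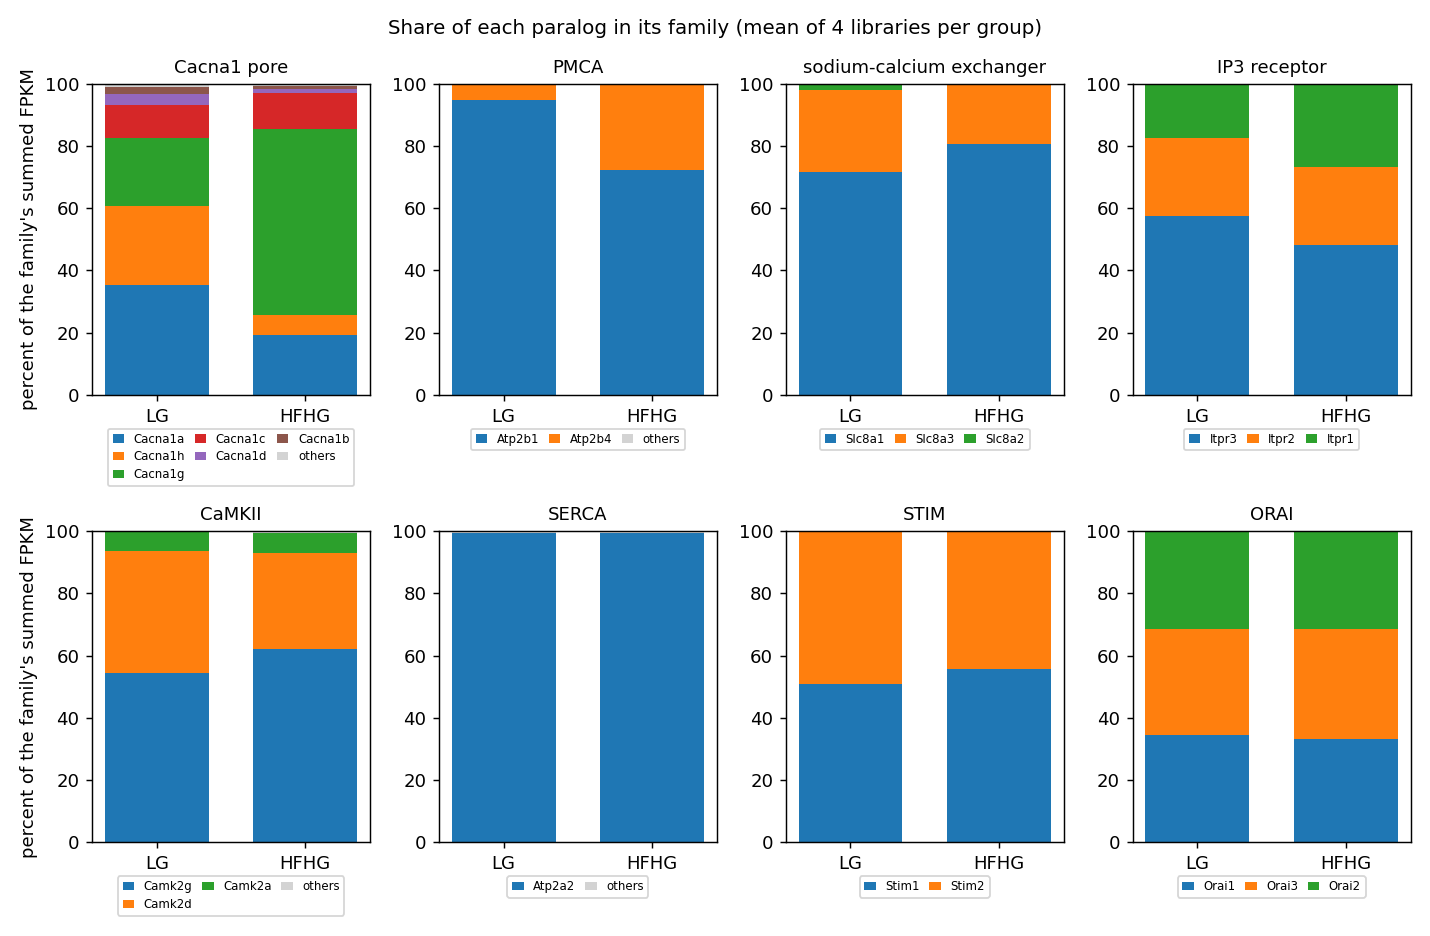
Stacked bars of the percent of each family's summed FPKM held by its members (vertical axis, 0 to 100), as the mean of 4 libraries in LG and in HFHG, with members under 1% in both groups pooled as others. The sodium-calcium exchanger bars hold the Slc8a genes alone and leave out Slc8b1, the most abundant exchanger. Cacna1g takes 22.03% of the pore genes in LG and 59.9% in HFHG, and Atp2b4 5.08% and 27.5% of the plasma membrane pumps, while the 3 ORAI genes keep near-equal shares.

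Of the auxiliary subunits, both tested beta subunits rose. Beta subunits sit on the cytosolic side of the pore and help high-voltage-activated channels to reach the membrane. Cacnb3, the most abundant voltage-gated subunit, was expressed at 29.8, 30.4, 29.3 and 29.4 FPKM in HFHG and 19.6, 19.4, 18.6 and 20.8 FPKM in LG, a rise of 0.60 on the log2 scale (SE 0.037, adjusted p = 2.1e-08 by limma). Cacnb1 rose by 0.55 (adjusted p = 0.0017 by limma), from a range of 0.868 to 1.31 FPKM in LG to 1.48 to 1.66 FPKM in HFHG.

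Cacna2d1, the alpha2delta subunit that holds channels at the surface, was at 1.74 ± 0.159 FPKM in HFHG and 1.62 ± 0.128 FPKM in LG, and was not called (log2 fold change 0.10, 95% interval -0.11 to 0.30). Cacng7, which belongs to the TARP proteins that accompany AMPA receptors, was called higher at 0.17 on the log2 scale (adjusted p = 0.02 by limma), but its groups overlapped, with 14.7 to 17.3 FPKM in HFHG and 13.4 to 15.6 FPKM in LG. It lost the call without HFHG replicate 2 (adjusted p = 0.0665) and without LG replicate 3 (adjusted p = 0.0594). In all, with Cacng7 counted among the higher, 6 of the 8 tested voltage-gated subunits were higher, 1 was lower and 1 was not called. Another 18 were below the minimum, 7 of them gamma subunits or TARPs. Over all genes tested, 34% were higher and 30.8% lower.

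**Figure D3:**
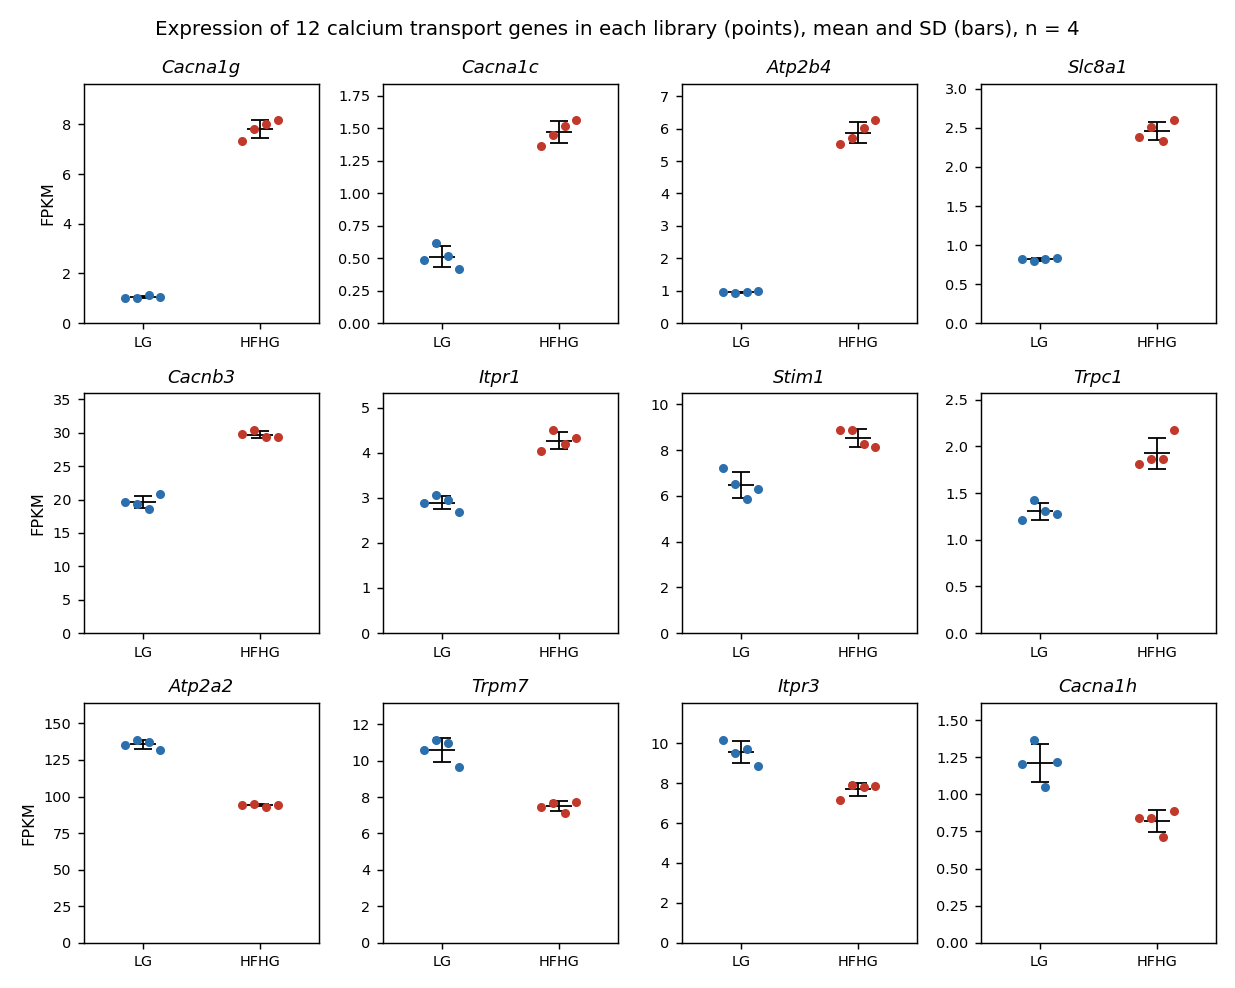
FPKM (vertical axes, each from 0) of 12 calcium genes in the 4 LG and 4 HFHG libraries, with a point per library in replicate order and bars for the mean and SD. Cacna1g, Cacna1c, Atp2b4, Slc8a1, Cacnb3, Itpr1, Stim1 and Trpc1 are higher in every HFHG library, and Atp2a2, Trpm7, Itpr3 and Cacna1h are lower in every HFHG library.

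Among the plasma membrane pumps, which push calcium out of the cell at the cost of ATP, Atp2b4 rose nearly as much as Cacna1g. It was expressed at 5.52, 5.70, 6.03 and 6.26 FPKM in the HFHG replicates and at 0.958, 0.945, 0.949 and 0.983 FPKM in the LG replicates. The LG libraries were almost equal, and the HFHG libraries were all several times higher. It rose by 2.50 on the log2 scale (SE 0.071, adjusted p = 1.34e-11 by limma).

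Atp2b1, the pump found in most cell types, was expressed at 15.9, 14.9, 14.97 and 16.1 FPKM in HFHG and 17.5, 19.2, 18.3 and 16.7 FPKM in LG. Its groups lay close together without overlap, and it fell by 0.21 on the log2 scale (adjusted p = 0.00184 by limma). As a result Atp2b4 made up 27.5% ± 1.23 of the PMCA transcripts in HFHG and 5.08% ± 0.371 in LG (SD, n = 4 each), and Atp2b1 72.2% and 94.7%. The sum of the PMCA genes was 21.4 ± 0.736 FPKM in HFHG and 18.9 ± 1.06 FPKM in LG.

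Slc8a1 was expressed at 2.39, 2.51, 2.34 and 2.60 FPKM in HFHG. In LG it was expressed at 0.828, 0.796, 0.816 and 0.834 FPKM. The groups were well apart, and the log2 fold change was 1.48 (SE 0.084, adjusted p = 8.93e-09 by limma). With a pseudocount of 1 in place of 0.1, Slc8a1 and Cacna1c no longer passed 2-fold, while Cacna1g and Atp2b4 did, which left 2 of the 4. Slc8b1, the mitochondrial sodium-calcium exchanger and the most abundant of its group, was not called, with 5.93 ± 0.239 FPKM in HFHG and 5.602 ± 0.475 FPKM in LG (log2 fold change 0.08, 95% interval -0.06 to 0.23).

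The pump of the endoplasmic reticulum went in the opposite direction. Atp2a2, which encodes the SERCA pump of most tissues and was the most abundant of all members, was expressed at 94.3, 94.6, 92.8 and 94.4 FPKM in HFHG and at 135.4, 138.7, 137.3 and 131.7 FPKM in LG. All HFHG libraries were below all LG libraries, and the gap was many times the spread. It fell by 0.53 on the log2 scale (SE 0.024, adjusted p = 9.86e-10 by limma). Atp2a2 held 99.4% of the SERCA transcripts in HFHG and 99.5% in LG, so the summed level of the family followed it, at 94.6 ± 0.770 FPKM in HFHG and 136.5 ± 3.02 FPKM in LG. Atp2a3, a SERCA pump of blood and epithelial cells, was at 0.557 ± 0.153 and 0.719 ± 0.0907 FPKM and was not called (adjusted p = 0.103 by limma). It passed the threshold without HFHG replicate 2 (log2 fold change -0.46, adjusted p = 0.0417) and under quantile normalization (-0.52, adjusted p = 0.0237).

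Atp2c1, the Golgi pump that carries calcium and manganese, was not called, with 17.2 ± 0.427 FPKM in HFHG and 16.7 ± 0.661 FPKM in LG (log2 fold change 0.04, 95% interval -0.04 to 0.13), though it was called higher with rescaling to the same sum (0.10, adjusted p = 0.0478). Over all pumps and exchangers, 2 of the 7 tested genes were higher, 2 were lower and 3 were not called, where 34% of all genes tested were higher and 30.8% lower.

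The IP3 receptors, which release calcium from the endoplasmic reticulum after phospholipase C has made IP3, divided 3 ways. Itpr1 was expressed at 4.05, 4.50, 4.20 and 4.33 FPKM in HFHG and 2.89, 3.052, 2.94 and 2.69 FPKM in LG, and rose by 0.55 on the log2 scale (SE 0.065, adjusted p = 1.04e-05 by limma). Itpr3, the most abundant of the 3, was expressed at 7.17, 7.90, 7.78 and 7.87 FPKM in HFHG and 10.2, 9.49, 9.73 and 8.86 FPKM in LG, and fell by 0.31 on the log2 scale (adjusted p = 0.000251 by limma). Neither gene overlapped between the groups.

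Itpr2 was at 4.03 ± 0.227 FPKM in HFHG and 4.16 ± 0.412 FPKM in LG and was not called (log2 fold change -0.04, 95% interval -0.21 to 0.13). The summed level of the IP3 receptors was 15.98 ± 0.661 FPKM in HFHG and 16.6 ± 1.03 FPKM in LG, less than 1 SD of the LG libraries apart. Within that sum the share of Itpr1 went from 17.4% ± 0.639 in LG to 26.7% ± 0.140 in HFHG and that of Itpr3 from 57.6% ± 1.22 to 48.1% ± 1.06 (SD, n = 4 each). The ryanodine receptors, which release stored calcium in muscle and nerve, were all below the minimum.

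Both STIM sensors, which span the membrane of the endoplasmic reticulum and report its calcium, were called higher. Stim1 was expressed at 8.86, 8.88, 8.26 and 8.14 FPKM in HFHG and 7.23, 6.497, 5.85 and 6.31 FPKM in LG, a rise of 0.40 on the log2 scale (SE 0.065, adjusted p = 0.000152 by limma). Stim2 was at 6.54 to 7.33 FPKM in HFHG and 5.90 to 6.62 FPKM in LG, so that its groups overlapped, and its log2 fold change of 0.14 passed narrowly (adjusted p = 0.0478 by limma). Stim2 lost the call in 11 of 19 other settings, with adjusted p-values up to 0.161. Leaving out HFHG replicate 3 gave an adjusted p of 0.149, and leaving out LG replicate 4 gave 0.103. In 4 more leave-out fits, without HFHG replicate 2 or 4 or LG replicate 1 or 3, it was 0.0650 to 0.0921.

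The ORAI channels, the pores that STIM proteins open, did not pass the test. Orai1 was at 12.2 ± 0.425 FPKM in HFHG and 11.96 ± 1.32 FPKM in LG (log2 fold change 0.03, 95% interval -0.12 to 0.19). Orai2 was at 11.5 ± 0.486 and 10.9 ± 0.451 FPKM (0.08, -0.03 to 0.18), and Orai3, the most abundant, at 12.9 ± 0.706 and 11.8 ± 0.971 FPKM (0.12, -0.01 to 0.26). The 3 genes held between 31.4% and 35.2% of their summed FPKM each in HFHG and between 31.5% and 34.4% in LG. Orai3 passed the threshold without HFHG replicate 4 (adjusted p = 0.0352) and without LG replicate 1 (adjusted p = 0.0301). When libraries were rescaled to the same sum, Orai2 (adjusted p = 0.0382) and Orai3 (adjusted p = 0.0155) were both called higher.

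Of the 20 TRPC, TRPM and TRPV channels, 5 passed the minimum. Trpc1, a subunit of receptor-operated cation channels, was expressed at 1.81, 1.86, 1.86 and 2.18 FPKM in HFHG and 1.21, 1.43, 1.31 and 1.28 FPKM in LG, without overlap, and rose by 0.53 on the log2 scale (adjusted p = 0.000282 by limma). Trpm7, a channel for magnesium, calcium and zinc fused to a kinase, was expressed at 7.47, 7.67, 7.13 and 7.73 FPKM in HFHG and 10.6, 11.1, 10.98 and 9.63 FPKM in LG, also without overlap. It fell by 0.49 on the log2 scale (SE 0.054, adjusted p = 4.88e-06 by limma).

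Trpm4, which calcium opens but which carries sodium and potassium, was at 5.49 ± 0.429 FPKM in HFHG and 5.52 ± 0.175 FPKM in LG (log2 fold change -0.01, 95% interval -0.15 to 0.13). Trpv2 was at 4.72 ± 0.325 and 4.91 ± 0.429 FPKM (-0.05, -0.21 to 0.11). Trpv4, a channel opened by swelling and warmth, was at 1.37 to 1.45 FPKM in HFHG and 1.47 to 1.68 FPKM in LG, which do not overlap, but it was not called (difference on the log2 scale -0.14, adjusted p = 0.165 by limma). Quantile normalization called it lower (-0.27, adjusted p = 0.0135). Trpc4ap, outside the channels, was expressed at 52.8, 50.3, 52.2 and 51.0 FPKM in HFHG and 39.99, 40.2, 40.1 and 43.3 FPKM in LG (difference on the log2 scale 0.33, adjusted p = 1.76e-06 by limma).

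Of the mitochondrial uniporter, Mcu, the pore, was not called, with 8.23 ± 0.450 FPKM in HFHG and 8.44 ± 0.597 FPKM in LG (log2 fold change -0.03, 95% interval -0.16 to 0.10). Micu2, a gatekeeper of the pore, was expressed at 30.6, 28.4, 29.8 and 28.7 FPKM in HFHG and 27.0, 26.4, 26.7 and 26.5 FPKM in LG, and rose by 0.14 on the log2 scale (adjusted p = 0.00265 by limma). Micu3, a gatekeeper known mostly from brain, was expressed at 2.37, 3.08, 2.53 and 2.89 FPKM in HFHG and 2.17, 2.23, 1.93 and 2.05 FPKM in LG, and rose by 0.35 on the log2 scale (adjusted p = 0.00492 by limma). Both gatekeepers were higher in every HFHG library than in any LG library.

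The CaMKII kinases, which calcium-bound calmodulin switches on, moved apart as well. Camk2g, the most abundant, was expressed at 18.6, 17.0, 16.5 and 16.01 FPKM in HFHG and 14.4, 13.5, 14.1 and 13.2 FPKM in LG, and rose by 0.30 on the log2 scale (adjusted p = 0.000182 by limma). Camk2d was expressed at 8.33, 8.68, 8.26 and 8.66 FPKM in HFHG and 9.49, 10.1, 10.6 and 9.55 FPKM in LG, and fell by 0.22 on the log2 scale (adjusted p = 0.00122 by limma). Neither overlapped between the groups. Camk2g thus held 62.1% ± 1.80 of the family in HFHG against 54.4% ± 1.29 in LG, and Camk2d 31.0% ± 1.57 against 39.2% ± 1.40 (SD, n = 4 each). Camk2a, known best from brain, stood higher in every HFHG library (1.69 to 1.82 against 1.47 to 1.58 FPKM) but was not called (difference on the log2 scale 0.18, adjusted p = 0.0566 by limma). It was called higher with a pseudocount of 1 (adjusted p = 0.0494) and with rescaling to the same sum (adjusted p = 0.024).

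The 44 genes below the minimum included all ryanodine receptors, 6 of the 10 pore subunits and 15 of the 20 TRP channels, and 34 of them stayed under 0.1 FPKM in every library. For 9 of them fewer than 10 reads were found in all 8 libraries together. The HFHG libraries were all above the LG libraries in 7 of the 44, where 6.94% of all low genes with reads showed this, and all below in 1 (2.27% of all low genes). For a single gene the exact two-sided permutation test of 4 against 4 libraries cannot go below 0.0286, which is the value of each of these 8 genes without correction.

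The highest of these 8 genes were Cacng8 and Slc8a3. Slc8a3, a sodium-calcium exchanger of muscle and brain, was expressed at 0.511, 0.525, 0.496 and 0.791 FPKM in HFHG and at 0.198, 0.374, 0.302 and 0.336 FPKM in LG, from 473 and 241 reads in all. After division by the library totals the ratio was 1.91 (exact 95% interval 1.64 to 2.24, for counting error only). Cacng8, a TARP protein, was at 0.632, 0.494, 0.696 and 0.517 FPKM in HFHG and 0.193, 0.482, 0.413 and 0.292 FPKM in LG, so the closest libraries nearly met.

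Ryr1, the release channel of skeletal muscle, had 97 reads in HFHG and 45 in LG, a ratio of 2.101 (1.46 to 3.06), at levels of 0.0183 to 0.0538 FPKM. Camk2b, of brain and muscle, had 114 and 57 reads (1.95, 1.41 to 2.73). Cacna1d, an L-type pore, had 502 and 391 reads (1.25, 1.09 to 1.43).

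Cacna1e, an R-type pore, had 103 and 30 reads (3.35, 2.21 to 5.21), but its level stayed at or below 0.0160 FPKM. Cacnb2, a beta subunit, had 65 and 29 reads (2.19, 1.39 to 3.51). Trpm2, a channel opened by ADP-ribose, was the exception in direction, with 91 reads in HFHG and 162 in LG (0.548, 0.419 to 0.712). When limma was run without a minimum, Slc8a3 (adjusted p = 0.0098), Cacng8 (0.0363), Ryr1 (0.0431), Camk2b and Trpm2 passed the threshold, and Cacna1d, Cacna1e and Cacnb2 did not. The 0.1 FPKM added on that scale is several times the level of Cacna1e. In a voom fit of the recovered reads with 10 reads in all as the only minimum, chosen after seeing the data, the calls of Cacna1e and Camk2b turned. Cacna1e passed, at 1.80 on the log2 scale (adjusted p = 0.00211 by limma), and Camk2b did not (adjusted p = 0.0566 by limma). In that fit Slc8a3, Cacng8, Ryr1 and Trpm2 also passed, and Cacna1d and Cacnb2 did not.

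**Figure D4:**
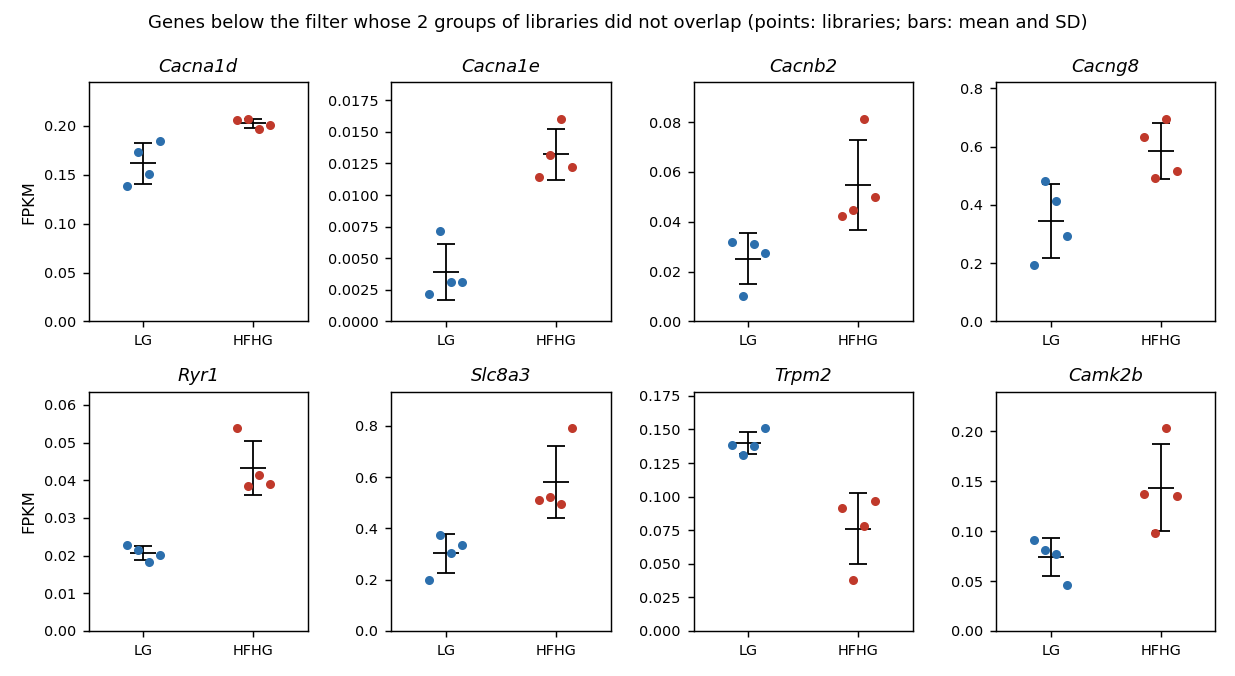
FPKM (vertical axes, each from 0) of the 8 genes below the minimum whose LG and HFHG libraries did not overlap, with a point per library in replicate order and bars for the mean and SD. No library reaches 1 FPKM, Trpm2 is lower in HFHG, and the other 7 are higher in HFHG.

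Several of the calcium genes are also used by muscle cells, so markers of the cell types that a tendon culture could hold were read beside them. Smooth muscle and pericyte markers were higher in HFHG: 10 of 15 passed the minimum and all 10 were called higher. Over all genes tested, 34% were higher and 30.8% lower. The summed level of these markers was 211.8 to 220.1 FPKM in HFHG and 157.1 to 166.4 FPKM in LG. Their rise was not particular to them, as 10 of 13 tendon fibroblast markers were higher too (median log2 fold change 0.61, beside 0.53). Cnn1, a calponin of contractile cells, was at 9.33 FPKM in HFHG and 3.39 FPKM in LG, and Acta2, smooth muscle actin, at 69.1 and 45.7 FPKM, whereas Myh11, Myocd and Rgs5 were below the minimum. Actg2, a smooth muscle actin, lost its call in 9 settings, among them the median-ratio and quantile scalings and the fits without HFHG replicate 1, 3 or 4 or LG replicate 1 or 3 (adjusted p = 0.0527 to 0.117 over the 9). Macrophage markers were mostly lower: 11 of the 13 tested were lower and 1 was higher. They summed to 1836 to 1883 FPKM in HFHG and 2034 to 2129 FPKM in LG, most of it from Lyz2. Under quantile normalization Lyz2 lost its call and changed sign (0.0062, adjusted p = 0.641 by limma). Csf1r lost its call in several settings, among them rescaling to the same sum (adjusted p = 0.227 by limma) and the fit without HFHG replicate 3 (0.0902). The part of any marker list in the calcium gene results was not tested.

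Skeletal muscle markers summed to 8.50 to 13.2 FPKM in HFHG and 10.1 to 11.8 FPKM in LG, and 10 of the 24 in the table were under 0.1 FPKM in every library. Of the 5 tested, 2 were higher and 2 lower. Mb, among the lower, ranged from 0.0984 to 1.83 FPKM in HFHG. It lost its call in several settings, among them without HFHG replicate 3 (adjusted p = 0.0815 by limma) and HFHG replicate 4 (0.0642). Endothelial markers summed to 2.03 to 2.47 FPKM in HFHG and 2.03 to 2.75 FPKM in LG (1 higher and 1 lower of 2 tested), and Schwann and neural markers to 10.7 to 11.6 and 8.10 to 8.53 FPKM (2 higher of 5 tested).

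The proteins around these channels and pumps were described from lists of other calcium genes. Their counts stand beside the 34% higher and 30.8% lower of all genes tested. The calcium-binding chaperones and buffers of the endoplasmic reticulum were mostly lower: all 12 were tested, 9 were lower, 3 were higher, and the median log2 fold change was -0.53 beside 0.02 over all genes. Hspa5 (BiP) was at 898.4 ± 7.03 FPKM in HFHG and 1855 ± 14.9 FPKM in LG, and Hsp90b1 (GRP94) at 779.3 ± 11.4 and 1522 ± 54.7 FPKM, whereas Rcn3, a reticulocalbin, rose from 94.8 ± 5.49 to 180.1 ± 1.53 FPKM (SD, n = 4 each). All 3 were called by limma (adjusted p = 2.35e-13, 8.61e-12 and 2.28e-10). Of the 9 lower genes, Calu, a calumenin, lost its call in 8 settings, 5 of them fits without HFHG replicate 1 or 2 or LG replicate 1, 2 or 3 (adjusted p = 0.0574 to 0.763 over the 8).

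Regulators of store release were divided, with 7 higher, 4 lower and 4 not called of 15 tested. Jph4, a junctophilin that ties the endoplasmic reticulum to the plasma membrane, rose by 0.92 on the log2 scale, Ahcyl1, which binds IP3 receptors, rose by 0.48, and Fkbp1a, which binds ryanodine receptors, fell by 0.42. Tmem38a, called higher at 0.25, lost the call under quantile normalization and without HFHG replicate 2 or LG replicate 2. Of 8 tested regulators of store-operated entry, 2 were higher and 4 lower. Cav1, the caveolae protein, rose by 0.77, Cracr2b, a regulator of ORAI channels, fell by 0.57, and Esyt1, a tether between the endoplasmic reticulum and the plasma membrane, fell by 0.39. Cracr2b lost the call without HFHG replicate 4 (adjusted p = 0.053 by limma).

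Of 15 tested genes of mitochondrial calcium, 3 were higher and 6 lower, with a median of -0.19. Mcub, which lowers the conductance of the uniporter, rose by 0.46, Slc25a23, a calcium-regulated carrier of ATP-magnesium, rose by 0.53, and Ghitm, an inner membrane protein, fell by 0.51. A further carrier, Slc25a25, was called higher at 0.12 but lost the call in several settings. Of 20 tested genes of calmodulin, calcineurin and NFAT, 8 were higher and 6 lower. The split depended on the scaling, with 10 higher and 4 lower after rescaling to the same sum and 7 of each with median-ratio scaling. Ppp3cb and Camkk2, called lower, and Rcan3, called higher, lost their calls in several settings. The calcineurin regulators Rcan2 and Rcan1 went opposite ways, with Rcan2 rising from 6.96 to 16.1 FPKM (difference on the log2 scale 1.20, adjusted p = 4.25e-09 by limma) and Rcan1 falling from 32.4 to 22.7 FPKM (-0.51, adjusted p = 1.96e-08 by limma). Camk1d, a calmodulin-dependent kinase, fell by 0.49.

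Of 10 tested genes of the phospholipase C step, 3 were higher and 2 lower. Plcd1, a delta isoform, rose by 0.51, Plce1, which Ras activates, fell by 0.38, and Plcl2, a relative without lipase activity, fell by 0.37 and lost the call in several settings, among them without HFHG replicate 1 (adjusted p = 0.0525 by limma), HFHG replicate 3 (0.079) and LG replicate 2 (0.0705). Of 17 other tested calcium-permeable channels and carriers, 5 were higher and 7 lower. The lysosomal channels Mcoln1 and Mcoln2 fell by 1.14 and 1.15 on the log2 scale, Mcoln1 from 54.2 ± 3.67 to 24.5 ± 0.906 FPKM (SD, n = 4 each), while P2rx5, an ATP-gated channel, rose by 1.17. Medians of the store release, phospholipase C and other channel lists lay between -0.05 and -0.02 and depended on the scaling, reaching 0.04 for the first and second of these when libraries were rescaled to the same sum.

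**Figure D5:**
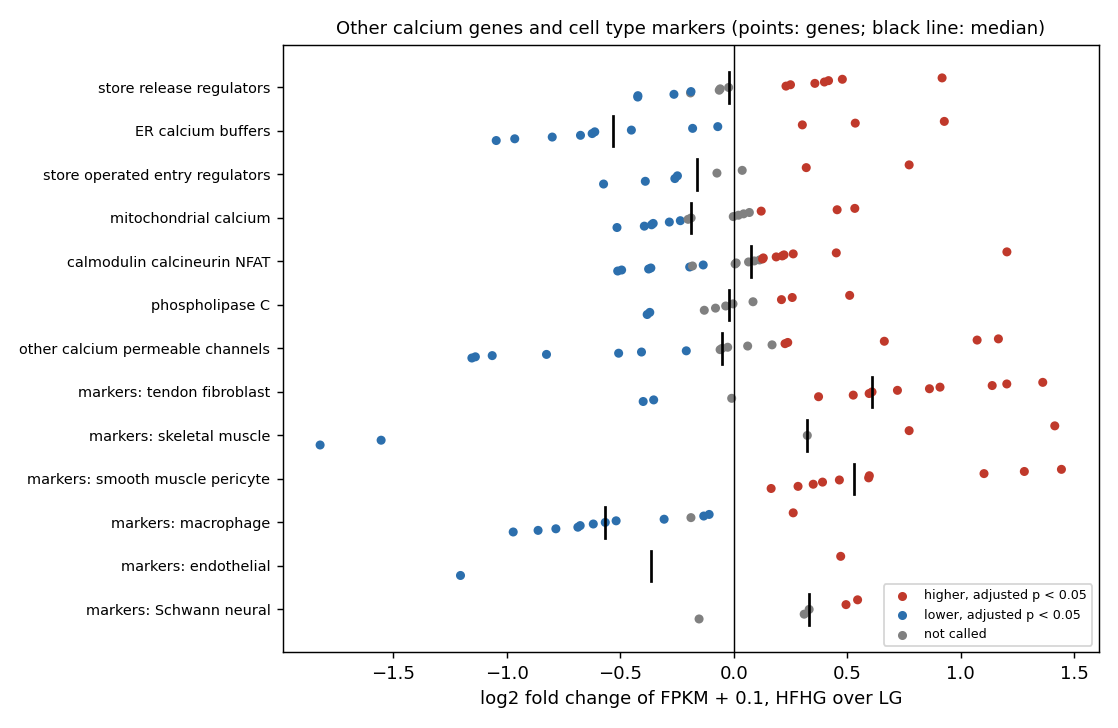
Log2 fold change of FPKM + 0.1 (HFHG over LG, horizontal axis) of each tested gene in 7 lists of other calcium genes and 6 lists of cell type markers, with a point per gene colored by its call and a black line at each list's median. The buffers of the endoplasmic reticulum (median -0.53) and the macrophage markers (-0.57) lie mostly to the left. The smooth muscle and pericyte markers (0.53) and the tendon fibroblast markers (0.61) lie mostly to the right.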

How the data were processed

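The samples were 8 stranded mRNA-seq libraries of mouse TSCs, 4 cultured in HFHG (25.5 mM glucose and 300 µM palmitic acid) and 4 in LG medium (5.5 mM glucose). The sample labels gave each group and replicate number, and the study's text gave the media. The authors deposited FPKM values for 19301 genes. The submitters' processing notes name HISAT2 2.1.0 and mm10, whereas the counting program, its use of strand, the annotation and any filter are not given in the sources used here. GO and KEGG columns of the table were not used.

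The whole reads behind the deposited FPKM were recovered from the steps of the low values, which gave whole reads for 100% of the genes, with 99.8% of the library totals on the listed genes. They were used for depth, for the ratios of low genes and for voom fits. No pair of replicates agreed within sampling noise, since the variance between replicates was 3.45 to 11.9 times the Poisson variance, highest in the pairs with LG replicate 4.

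Genes with at least 0.5 FPKM in at least 4 libraries (11710) were fitted with limma 3.58.1 in R 4.3.3 on log2(FPKM + 0.1), with an intensity trend, all 8 libraries and no covariate. The Benjamini-Hochberg adjustment ran over all genes tested. Members below the minimum were compared by an exact two-sided permutation test over 70 arrangements and by exact intervals at the 95% level, in Python 3.11.15 with scipy 1.17.1. Shares of a family were taken per library from the FPKM. The fit and the recovery of reads were tested on simulated data. Gene positions and start windows came from RefSeq GRCm38.p6.

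The genes named with values were the called members with an absolute log2 fold change of at least 0.5, the most abundant member of each role, low members without overlap and the 3 largest called changes of each other list. The remaining tested members were chosen after their values were seen. So were Scx, Tnmd, Mkx, Cnn1, Acta2, Myh11, Myocd, Rgs5, Actg2, Calu, Lyz2, Csf1r, Mb, Tmem38a, Slc25a25, Ppp3cb, Camkk2 and Rcan3. The values of 1 member are not reported here. Members and lists were chosen with earlier results of these data known. Alternatives were a pseudocount of 1 or 0.01, no minimum or a minimum of 1 FPKM, 3 other scalings, a robust eBayes, the replicate number as a block, each library left out, and voom on recovered reads. A voom fit with 10 reads in all as the only minimum, and the shares of the pore and exchanger families, were added after seeing the data.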

Additional observations from a re-analysis of the deposited data

Results flagged for a closer look

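In 72 groups of 4 libraries (36 tested genes in 2 groups), the library farthest from the others was held against Dixon's 95% critical value for its gap over the group's range. That value was exceeded in 6 groups, where chance alone flags about 1 in 20. In LG, replicate 3 was above the others for Cacna1g (1.12 FPKM, others 1.03 to 1.04), replicate 4 was below them for Itpr2 (3.55 FPKM, others 4.29 to 4.42) and above them for Trpc4ap (43.3 FPKM, others 39.99 to 40.2). In HFHG, replicate 1 was below the others for Itpr3 (7.17 FPKM, others 7.78 to 7.90), and replicate 4 was below them for Orai3 (11.8 FPKM, others 13.2 to 13.4) and above them for Trpc1 (2.18 FPKM, others 1.81 to 1.86). Cacna1g, Trpc4ap, Itpr3 and Trpc1 kept their calls when that library was left out, Itpr2 stayed uncalled, and Orai3 was called only then and without LG replicate 1 among the fits that left out a library.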

How the results depend on the processing

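Under 19 other settings each, 21 of the 23 called members kept their call and direction, the exceptions being Stim2 and Cacng7, whose call was also lost with median-ratio scaling (adjusted p = 0.0640 for Cacng7). The number of members called higher ranged from 14 to 16 and lower from 7 to 8 when a library was left out, with 4 over 2-fold higher and 0 lower in each such fit and 7177 to 7519 of all genes called. A pseudocount of 1 left 2 members over 2-fold higher, and voom with 10 reads in all as the only minimum, added after seeing the data, gave 6 over 2-fold higher, as Cacna1e (1.80) and Ryr1 (1.03) joined the 4, and 1 over 2-fold lower (Cacng2), all 3 below the minimum of the report. Of the uncalled members, Atp2a3, Atp2c1, Camk2a, Orai2, Orai3 and Trpv4 were called in 1 to 3 settings each, given in the report. The cause was not tested.

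Reversed signs were found only for uncalled members. Rescaling to the same sum gave log2 fold changes of 0.0172 for Itpr2, 0.0486 for Trpm4, 0.0046 for Trpv2 and 0.0252 for Mcu, median-ratio scaling gave -0.0031 for Orai1, and quantile normalization gave -0.0348 for Cacna2d1. With a library left out, Orai1 ranged from -0.0435 (without LG replicate 2) to 0.0829, Trpm4 from -0.0463 to 0.0271 (above 0 without HFHG replicate 2 or 3 or LG replicate 2) and Mcu from -0.0727 to 0.0081 (above 0 without HFHG replicate 2 or LG replicate 4). Other scalings moved the median of all genes by at most 0.06.

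Same-numbered libraries of the groups did not deviate together (correlations -0.0736 to -0.0056, beside -0.0462 to 0.0696 for libraries of unlike number). The labels state no pairing, and with 4 libraries per group these correlations cannot exclude it. With the replicate block, 16 members became 15 higher, 7 stayed lower, 4 and 0 were over 2-fold higher and lower, and 7342 of all genes were called. Only Stim2 lost its call (adjusted p = 0.0762).
Genes with few reads carry counting error, which is all that the intervals of the ratios cover. Variation between replicates is left out of these intervals and was not measured separately for such genes.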
